A study of Mus musculus with 42 samples.

Results

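The planar cell polarity genes followed here were 10 of the 56953 genes in the counts of mouse heart fields, picked by name as core or effector genes of the pathway and found by mapping Ensembl identifiers to gene symbols. They were *Vangl1* and *Vangl2*, *Celsr1*, *Celsr2* and *Celsr3*, *Prickle1* and *Prickle2*, *Ptk7*, *Daam1* and *Daam2*, and all 10 passed the filter on low counts in every comparison. RNA was sequenced from the left and the right side of the heart field of 21 embryos at E8.5, 42 libraries in all, dissected as the dorsal pericardial wall without the heart tube, head, back and trunk below the second somite. Each embryo was a wild type (*Ccdc40* +/+, with rightward looping), a *Ccdc40* lnks/lnks mutant whose heart tube looped rightward, or a *Ccdc40* lnks/lnks mutant with inverted looping, from a line kept on the background that the study writes as C56Bl6J, with littermates. The groups held 5 wild types (4 male, 1 female), 11 rightward mutants (6 male, 5 female) and 5 inverted mutants (3 male, 2 female). Motile cilia need *Ccdc40*, and the mutants lack the leftward flow at the node. They carry the same allele in every tissue, and embryos were chosen for stage, genotype, looping and sex. The study divides the rightward mutants further, by clusters of gene expression asymmetry, into situs solitus and heterotaxy. The labels give the direction of looping alone, so the rightward mutants stand here as 1 group that mixes both, in every value and contrast. Nothing was pooled, and a library is 1 side of the heart field of 1 embryo.

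Planar cell polarity aligns cells within the plane of a sheet. Transmembrane proteins of the Van Gogh-like (*Vangl*) and Flamingo cadherin (*Celsr*) families meet across the borders of cells, with the cytoplasmic *Prickle* proteins on the *Vangl* side and Frizzled and Dishevelled proteins on the other. *Ptk7* encodes a coreceptor that takes part in noncanonical WNT signaling, and the formins *Daam1* and *Daam2* link Dishevelled to actin. In the embryo the pathway is known for closure of the neural tube, convergent extension, the tilt of cilia in the node, and the addition of second heart field cells to the outflow tract.

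Promoters are shown for a pair of members with more on the left in all inverted mutants and for 1 with more on the right, as the 250 bases before the start of the transcript (RefSeq, GRCm38.p6, 5′ to 3′ on the strand of the gene). Such entries were found for 8 of the 10 members, 14 promoters in all. Capitals mark the letters ACAAT, the core that SOX factors bind, searched on both strands.
Vangl2, minus strand, chr1:172027296-172027545: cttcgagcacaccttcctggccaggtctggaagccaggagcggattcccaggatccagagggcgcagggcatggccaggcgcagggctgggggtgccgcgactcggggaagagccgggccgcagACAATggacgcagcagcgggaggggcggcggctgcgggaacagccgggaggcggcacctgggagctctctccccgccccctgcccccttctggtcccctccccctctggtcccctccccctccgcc
Celsr2, minus strand, chr3:108415580-108415829: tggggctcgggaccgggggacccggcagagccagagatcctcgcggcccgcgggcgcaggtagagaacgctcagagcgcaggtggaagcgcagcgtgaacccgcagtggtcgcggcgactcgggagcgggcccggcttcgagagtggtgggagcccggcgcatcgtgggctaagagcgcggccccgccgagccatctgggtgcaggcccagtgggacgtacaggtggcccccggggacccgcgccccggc
Daam1, plus strand, chr12:71830818-71831067: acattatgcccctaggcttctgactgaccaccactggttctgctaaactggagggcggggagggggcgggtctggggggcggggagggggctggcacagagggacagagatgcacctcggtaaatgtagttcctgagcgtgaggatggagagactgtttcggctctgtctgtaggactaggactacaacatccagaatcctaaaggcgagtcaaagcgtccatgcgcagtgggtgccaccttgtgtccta
The letters occurred in 2 of the 14 promoters, the one of *Vangl2* and 1 of *Prickle1*, and in 27.7% of all 32851 promoters of the table. The *Vangl2* and *Celsr2* promoters were rich in G and C, at 73.6% and 75.2% with 18 and 32 CpG, against 58% and 9 CpG in the *Daam1* promoter shown, 52.8% and 4 CpG in its other entry, and medians of 52.4% and 6 CpG over all promoters. Other members differed from this contrast: the first *Prickle1* entry, of a gene with a value above 0 in inverted mutants, had 74% and 34 CpG, and *Celsr3*, with one below 0, had 58% and 17 CpG. A match of letters is a description, and no factor was measured at these promoters.

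The libraries held between 36073684 and 62970327 counts (median 43458644). The mutated gene *Ccdc40* had 15.2 to 26.5 CPM in wild types, 8.83 to 14.6 in rightward and 9.99 to 14.8 in inverted mutants. The genotypes did not overlap, but their ranges nearly met. The allele is a point mutation, which an RNA level does not read, and the study checked genotypes by the mutated base in the reads. CPM here are counts scaled to the effective size of each library. Markers of the heart field were high, with a summed median of 659 CPM on the left and 768 on the right of wild types for a list of 10 genes that holds *Isl1*, *Tbx5* and *Nkx2-5*. Other tissues were in the libraries as well. Heart tube muscle markers were high although the tube had been cut away, with medians of 493 CPM for *Myl7*, 720 for *Myh6* and 284 for *Tnnt2*, as were *Epcam* (119) and *Cdh1* (112) of the foregut list and *Ets1* (98.3) of the neural crest list. Within these lists and that of node and notochord (*T* at 6.85), *Nppa*, *Foxd3*, *Nkx2-1* and *Noto* were the genes with medians under 1 CPM. The left to right balance of the lists is given below with the genes it moved with. In bulk tissue, fewer cells of a type and less RNA per cell cannot be told apart.

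In the GRCm39 annotation, *Vangl2* lies on chromosome 1 (171828527 to 171856011, minus strand), *Celsr2* on 3 (108298165 to 108323397, minus) with *Vangl1* (102060899 to 102112057, minus), *Celsr3* on 9 (108703519 to 108730168, plus), *Daam1* on 12 (71877692 to 72039150, plus), *Prickle1* and *Celsr1* on 15 (93394582 to 93494477 and 85783126 to 85918438, both minus), and *Ptk7* and *Daam2* on 17 (46875376 to 46940446 and 49763040 to 49871559, both minus). *Prickle2* is on 6 (92347873 to 92683215, minus). All 10 are protein-coding, and counts are sums over their exons. No single other gene has exons over more than 4.73% of the merged exon length of a member, which is the overlap of *Celsr3* with the opposite-strand *Gm57039*, and since the strand setting was not given, reads of such pairs cannot be told apart.

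*Ptk7* was the most abundant member in each group. Its level was 369 ± 26.6 CPM (SD, n = 21 embryos, mean of both sides), or 55.6 CPM per kilobase of exon, the scale on which genes are compared here. The length is that of all annotated exons merged, not of the transcripts expressed, so orders and shares of genes depend on it. *Vangl2* followed with 11.7 and *Daam1* with 8.51 CPM per kilobase. *Prickle1* had 3.95, *Vangl1* 2.62 and *Daam2* 2.24. *Celsr2*, *Prickle2* and *Celsr1* lay together at 1.25, 1.24 and 1.02 CPM per kilobase. *Celsr3* was lowest at 0.124, with as few as 25 counts in a library, and the other 9 members had at least 200 counts in every library.

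Some neighbours in this order stood apart in every embryo and others did not. *Ptk7* was above *Vangl2* in 21 of 21 embryos, 4.78-fold on geometric average, and *Daam1* was above *Prickle1* in 21 of 21 by 2.15-fold. *Prickle1* was also above *Vangl1*, and *Daam2* above *Celsr2*, in 21 of 21. *Vangl2* was above *Daam1* in 20 of 21 embryos. *Vangl1* was above *Daam2* in 15 of 21, *Prickle2* above *Celsr1* in 14 of 21 and *Celsr2* above *Prickle2* in 10 of 21, and for these 3 pairs the mean log2 gap (0.23, 0.30 and -0.02) was smaller than its SD between embryos (0.31, 0.39 and 0.44). The 8.59-fold step from *Celsr1* down to *Celsr3* was seen in 21 of 21 embryos.

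**Figure D1:**
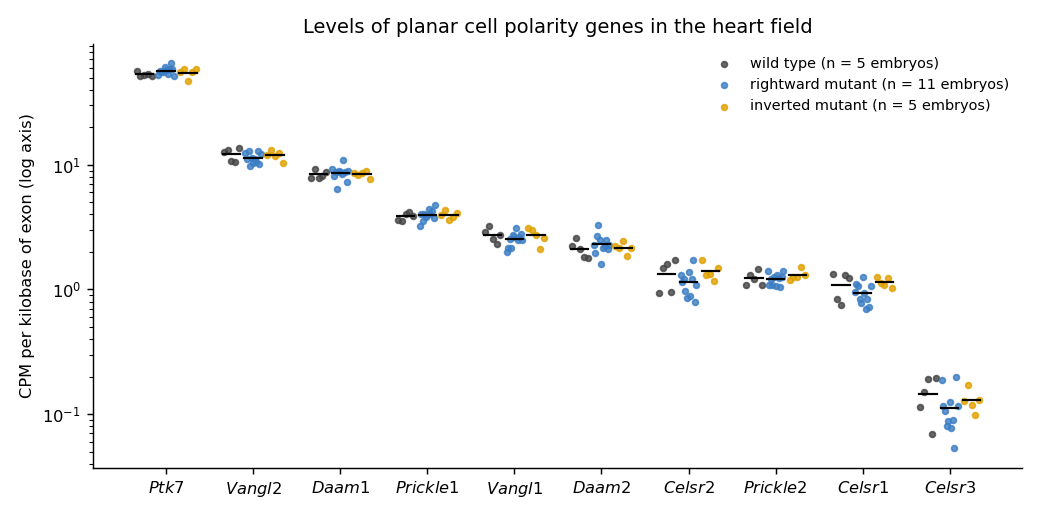
Level of each planar cell polarity gene, as CPM per kilobase of merged exon on a log axis, with 1 point per embryo (mean of left and right) and a bar at the group mean. *Ptk7* has the highest points and *Celsr3* the lowest, and the 3 groups overlap for every gene.

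In the *Vangl*, *Prickle* and *Daam* pairs, 1 paralog made up most of the level per kilobase of merged exon. The SD of a share covers the spread between embryos alone. *Vangl2* gave 81.6% ± 1.88 (SD, n = 21) of the per-kilobase level of the *Vangl* pair, *Prickle1* 76.1% ± 2.12 of the *Prickle* pair and *Daam1* 79.1% ± 3.45 of the *Daam* pair. The Flamingo cadherins were divided between *Celsr2* with 52.1% ± 2.82 and *Celsr1* with 42.8% ± 2.93, leaving 5.07% ± 1.02 for *Celsr3*. The shares were close in the groups: *Vangl2* gave 81.5% in wild types, 81.8% in rightward and 81.4% in inverted mutants. The highest share of *Daam2*, 34.0%, came from the rightward mutant 2_2 alone, which had 40.6 CPM of *Daam2* on the left and 35.6 on the right. Over embryos, the coefficient of variation was 7.21% for *Ptk7* and 35.0% for *Celsr3*.

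Levels on 1 side were then compared between groups with edgeR's quasi-likelihood test, with sex in the model, and called at an adjusted p (Benjamini-Hochberg over all genes tested) under 0.05. No member was called in any of the 4 comparisons, and at an unadjusted p under 0.05 there were 2 members in 1 of them (inverted against rightward mutants on the left, where 7.89% of all genes were) and 0 in the others, where the shares of all genes were 3.28% to 5.02%. DESeq2 called 0 members in each, and 0.0241% to 0.419% of all genes. Among all genes, 0.0242% were called on the left and 0.0121% on the right for rightward mutants against wild types, and 0.0121% on the left and 0.00805% on the right for inverted against rightward mutants. The genotype comparison gave *Ptk7* a log2 fold change of 0.11 on the left (95% interval -0.01 to 0.23) and 0.06 on the right (-0.07 to 0.18), which was 0.01 without the rightward mutant 2_2. Intervals were wider for the scarcer *Celsr2*, from -0.46 to 0.44 on the left and from -0.73 to 0.15 on the right. The right value of *Celsr2*, -0.29, was -0.0089 without the wild type 10_1.

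The 2 members under an unadjusted p of 0.05 were Flamingo cadherins on the left, with higher values in inverted than in rightward mutants. *Celsr2* had 15.6 to 27.4 CPM on the left of inverted mutants (median 19.4) and 8.23 to 19.97 on the left of rightward mutants (median 14.2). The groups overlapped. Its log2 fold change was 0.51 (SE 0.21, unadjusted p = 0.0218, edgeR adjusted p = 0.550), and that of *Celsr1* was 0.39 (SE 0.18, unadjusted p = 0.0470, edgeR adjusted p = 0.63). On the same side the summed level of a list of 7 neural tube markers (*Sox1*, *Sox2*, *Sox3*, *Pax6*, *Olig2*, *Nkx6-1* and *Hes5*) ran from 75.8 to 144 CPM in inverted mutants, with a median of 112, and from 9.24 to 97.1 in rightward mutants, with a median of 48.4. Its part in the difference was not tested. *Daam2* lay the other way, at 22.2 ± 2.59 CPM on the left of inverted mutants (SD, n = 5) and 27.8 ± 6.03 on the left of rightward mutants (n = 11), with a log2 fold change of -0.32 (SE 0.15, unadjusted p = 0.0532, edgeR adjusted p = 0.639).

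The wild types show the normal asymmetry of these genes, and no member was called between right and left. EdgeR's test with the embryo as a block called 0% of 23182 genes, no member had an unadjusted p under 0.05 (639 genes did), and DESeq2 called 20 genes and 0 members. The member values were small, from *Daam1* at -0.17 (right over left, log2, SE 0.12) to *Celsr1* at 0.22 (SE 0.24). *Ptk7* was the most tightly bounded, at 0.04 with a 95% interval of -0.10 to 0.19, and was at -0.0090 without embryo 17_7.

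One embryo stood apart from the other wild types. In embryo 10_1, *Celsr2* had 10.1 CPM on the left and 31.0 on the right, and *Vangl2* 63.9 and 127. In the other wild types, *Vangl2* had 94.3 and 82.2, 95.2 and 88.9, 75.7 and 73.6, and 72.8 and 75.1 CPM on the left and right in that order, so both sides were close in each. The neural tube markers of embryo 10_1 summed to 53.0 CPM on the left and 279 on the right, and its heart tube muscle markers, a list of 7 genes with *Myl7* and *Tnnt2*, to 2557 and 809. Without this embryo the log2 value of *Vangl2* in wild types went from 0.13 to -0.08, that of *Celsr1* from 0.22 to -0.07, of *Celsr2* from 0.15 to -0.19 and of *Celsr3* from 0.10 to -0.22, while *Daam1* went from -0.17 to -0.04 and *Prickle1* from -0.12 to -0.00069. Other embryos moved these values as well, as *Celsr1* was at 0.39 without embryo 7_1 and *Daam1* at -0.26 without embryo 22_4. None of the 10 members was called in wild types on leaving out any of the 5 embryos.

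Rightward mutants had no called member either, where edgeR called 6 of 22795 genes, or 0.0263%. No member had an unadjusted p under 0.05 (818 genes did), and DESeq2 called 32 genes and 0 members. All 10 log2 values lay between -0.22 (*Celsr3*, SE 0.20) and 0.05 (*Prickle2*, SE 0.10). Each end rested on 1 embryo, as *Celsr3* was at -0.08 without embryo 19_4 and *Prickle2* at -0.01 without embryo 19_6. With 11 embryos the intervals were narrow for abundant genes: *Ptk7* had a 95% interval of -0.10 to 0.06, *Daam1* of -0.06 to 0.14 and *Vangl2* of -0.25 to 0.08. Single embryos went either way. *Celsr2* was higher on the right in 5 and on the left in 6 of the 11, from -0.78 in embryo 19_4 to 1.13 in embryo 19_6, whose neural tube markers had 9.24 CPM on the left and 124 on the right.

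In inverted mutants edgeR called none of the 10 members at an adjusted p under 0.05, where 468 of 22960 genes, or 2.04%, were called. At an unadjusted p under 0.05 there were 6 members, against 15.1% of all genes. DESeq2, which called 1755 genes or 7.64%, called 5 of these 6 members. The transmembrane genes *Vangl2*, *Celsr2* and *Celsr3* were the 3 with more on the left, and the cytoplasmic *Prickle1*, *Daam1* and *Daam2* the 3 with more on the right. The median log2 value of the 10 members was -0.0025, beside -0.0050 over all genes tested.

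Among the transmembrane genes, *Celsr2* had the lowest p. Its CPM on the left and right of the 5 inverted mutants were 27.4 and 14.4, 19.7 and 11.7, 19.4 and 12.7, 15.6 and 12.4, and 19.2 and 16.6. The left was higher in 5 of 5 embryos, although the range of the left libraries overlapped that of the right. The log2 fold change was -0.56 (right over left, SE 0.12, edgeR adjusted p = 0.0587), and DESeq2 gave an adjusted p of 3.67e-05. Leaving out embryo 10_3 brought edgeR's adjusted p to 0.0410, and leaving out the others kept it above 0.05.

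*Vangl2*, the Van Gogh-like gene that is mutated in the looptail mouse, was lower on the right by less. Its CPM on the left and right were 99.9 and 67.5, 102 and 80.0, 91.8 and 73.6, 89.4 and 84.9, and 73.5 and 70.0. All 5 left libraries exceeded their right ones, by a wide margin in 3 embryos and a narrow one in the other 2. The log2 fold change was -0.27 (SE 0.076, edgeR adjusted p = 0.136, DESeq2 adjusted p = 0.00246). *Celsr3* had the largest value of the 10 but few counts. It had 57 to 152 counts on the left and 36 to 88 on the right, with a log2 fold change of -0.74 (SE 0.24, edgeR adjusted p = 0.184, DESeq2 adjusted p = 0.0624) and more on the left in 4 of 5 embryos. In the 3 males alone it was -0.43, from embryos at -0.84, -0.59 and 0.16.

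Of the formins, *Daam1* had 54.3 and 80.5, 63.8 and 93.9, 67.8 and 84.4, 68.5 and 76.5, and 74.7 and 76.0 CPM on the left and right of the 5 embryos. The right was higher in each, and the lowest right library, at 76.0, was above the highest left one, at 74.7. The log2 fold change was 0.33 (SE 0.086, edgeR adjusted p = 0.106, DESeq2 adjusted p = 0.000585). *Daam2* had 23.6 and 27.6, 22.7 and 26.6, 25.6 and 30.4, 19.2 and 23.6, and 20.2 and 29.3 CPM. It too was higher on the right in each of the 5 (log2 fold change 0.32, SE 0.072, edgeR adjusted p = 0.0726, DESeq2 adjusted p = 0.00392), and its left and right ranges overlapped.

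*Prickle1*, which encodes a cytoplasmic partner of the Vangl proteins, was higher on the right in 4 of 5 inverted mutants, at 47.6 ± 4.82 CPM on the left and 55.4 ± 4.43 on the right (SD, n = 5). Its log2 fold change was 0.23 (SE 0.072, edgeR adjusted p = 0.177, DESeq2 adjusted p = 0.0245). The other 4 members had an unadjusted p above 0.05. *Celsr1* was at -0.25 (95% interval -0.57 to 0.07), *Vangl1* at -0.07 (-0.29 to 0.14), *Prickle2* at 0.12 (-0.16 to 0.40) and *Ptk7* at 0.07 (-0.02 to 0.16). Without embryo 4_6 *Celsr1* was at -0.13, without 2_7 *Vangl1* was at 0.01, and without 18_2 *Prickle2* was at -0.02. *Ptk7*, the most abundant, was also the one with the narrowest interval.

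**Figure D2:**
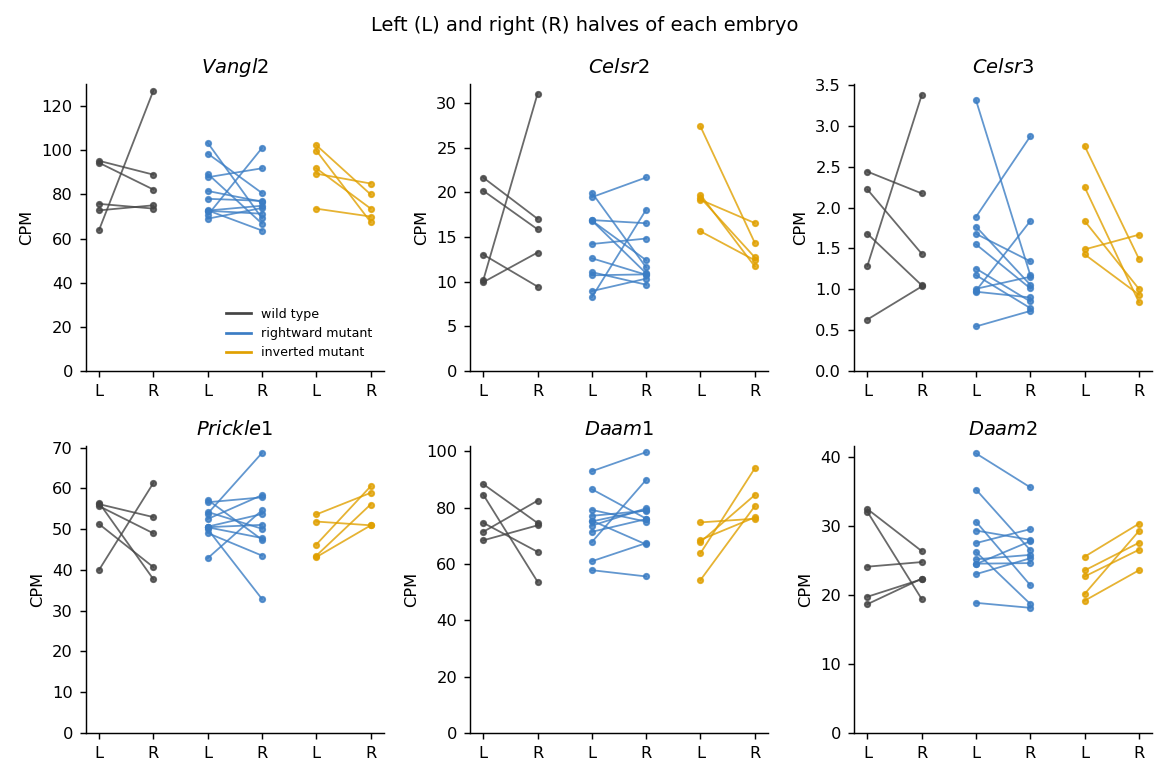
CPM of the 6 members with an unadjusted p under 0.05 in inverted mutants, with a line from the left (L) to the right (R) side of each embryo and each group in its own color. In inverted mutants the lines of *Vangl2* and *Celsr2* fall and those of *Daam1* and *Daam2* rise in 5 of 5 embryos, while lines of the other groups go both ways.

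Whether the asymmetry of inverted mutants differs from that of the other groups was tested as an interaction in a fit of all 42 libraries. No member was called against rightward mutants, where 0.311% of 26335 genes were called, nor against wild types, where 0.513% were. Against rightward mutants, the difference of log2 values was 0.42 for *Daam2* (SE 0.14, edgeR adjusted p = 0.239) and 0.28 for *Daam1* (SE 0.12, edgeR adjusted p = 0.385), both under an unadjusted p of 0.05, as were 10.5% of all genes. For *Celsr2* it was -0.50 with a 95% interval of -1.08 to 0.09, and for *Vangl2* -0.20 with an interval of -0.53 to 0.14, which was -0.12 without the inverted mutant 32_2.

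Against wild types, 4 members had an unadjusted p under 0.05, against 13.6% of all genes: *Daam1* with a difference of 0.48 (SE 0.14, edgeR adjusted p = 0.111), *Daam2* with 0.42 (SE 0.17), *Celsr2* with -0.72 (SE 0.34) and *Vangl2* with -0.41 (SE 0.19). DESeq2 called *Daam1* alone of the 10, at an adjusted p of 0.0130, and 3.46% of all genes. Leaving out the wild type 22_4 brought edgeR's adjusted p of *Daam1* to 0.0261, and leaving out the wild type 10_1 brought it to 0.350, with a difference of 0.36. Without embryo 10_1 the differences were -0.38 for *Celsr2* and -0.20 for *Vangl2*, and without the wild type 8_1 that of *Daam2* was 0.28. Both contrasts share the inverted mutants, so they are not separate evidence. Between rightward mutants and wild types, 0 members and 0% of genes were called (edgeR and DESeq2), no member had an unadjusted p under 0.05 (800 genes did), and the difference ranged from -0.32 for *Celsr3* to 0.20 for *Daam1*. Both ends rested on embryo 10_1, without which they were -0.0023 and 0.08.

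**Figure D3:**
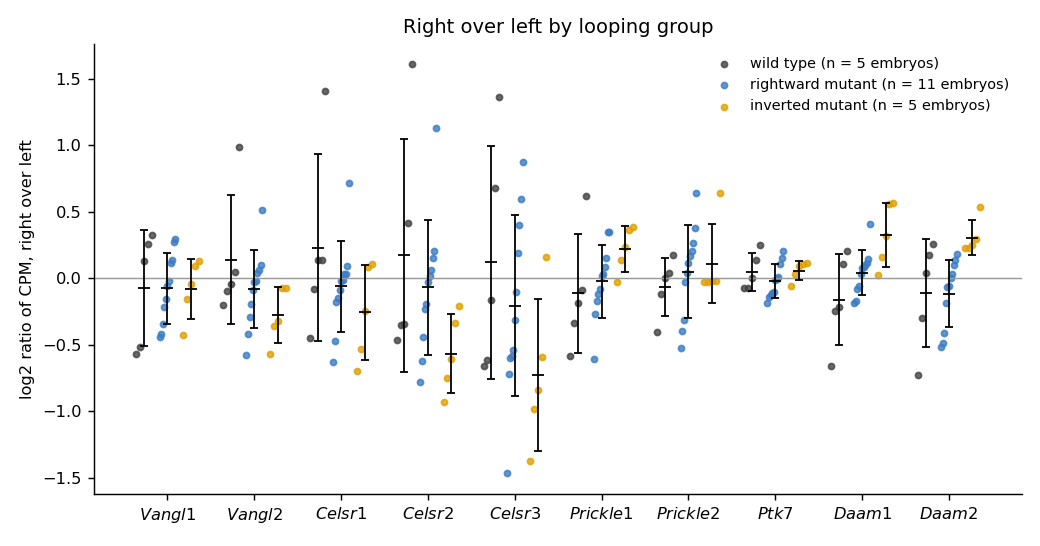
Log2 ratio of CPM, right over left, of the 10 members, with 1 point per embryo, a bar at the group mean and whiskers of 1 SD. Points of inverted mutants lie below 0 for *Vangl2* and *Celsr2* and above 0 for *Daam1* and *Daam2* in 5 of 5 embryos, and *Ptk7* stays within -0.19 and 0.25 in all 21.

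Tissue markers had sides of their own in the inverted mutants. The neural tube list had a median of 112 CPM on the left and 24.1 on the right, and was higher on the left in 5 of 5 embryos, with 4 of its 7 genes called lower on the right. The heart tube muscle list had medians of 1769 and 3844 CPM and was higher on the right in 5 of 5, with 6 of 7 genes called. The heart field progenitor list was also higher on the right in 5 of 5 (663 and 944 CPM), with 5 of 10 genes called. Surface ectoderm and endothelium markers were higher on the right in 5 of 5 too (mean log2 ratios 0.56 and 0.23). The surface ectoderm sum is mostly that of *Krt8* and *Krt18*, so its side is mostly the side of those genes. Paraxial mesoderm markers were higher on the left in 4 of 5 (-0.80). The foregut, neural crest, node and notochord, visceral endoderm and primitive blood lists had embryos on either side. Neural and paraxial markers thus lay on the side of *Vangl2*, *Celsr2* and *Celsr3*, and cardiac, surface ectoderm and endothelium markers on the side of *Prickle1*, *Daam1* and *Daam2*, and their part in these differences was not tested.

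Across the 21 embryos, right over left of several members followed that of these lists. For each member and each of 11 tissue lists, Pearson's r and Spearman's rho were taken with 100000 permutations and adjusted over the 110 relations. *Celsr2* followed the neural tube list most closely (r = 0.906, rho = 0.947, both p = 1e-05, the smallest that the permutations can give, adjusted p = 0.00022 and 0.00055). It had r = 0.908 without the 2 embryos farthest from the median of the list and 0.943 within the 11 rightward mutants. *Celsr3* (r = 0.823), *Celsr1* (r = 0.776) and *Vangl2* (r = 0.765) also passed at adjusted permutation p of 0.00022, 0.00022 and 0.000917, and within rightward mutants their r was 0.728, 0.932 and 0.802. These genes passed with further lists too. With heart field progenitors, *Celsr2* had r = -0.805 (rho = -0.879), *Celsr3* r = -0.783 (rho = -0.808) and *Vangl2* r = -0.66 (rho = -0.627). The rho of *Celsr3* with neural tube was 0.788. *Celsr1* had rho = 0.768 with node and notochord and 0.744 with neural tube.

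*Prickle1* followed the heart tube muscle list (r = 0.83, rho = 0.781, permutation p = 1e-05 and 5e-05, adjusted p = 0.00022 and 0.000786), with r = 0.689 without the 2 farthest embryos and 0.892 within rightward mutants. *Daam1* and *Daam2* had r = 0.711 and 0.685 with that list (rho = 0.699 and 0.796, adjusted permutation p = 0.00213 and 0.00342 for r), and a lower r of 0.351 and 0.463 within rightward mutants. By the size of r, other lists were closer for *Daam1* and *Daam2* and nearly as close for *Prickle1*. *Daam1* had r = 0.838 with surface ectoderm (rho = 0.819, adjusted permutation p = 0.000314 for r, 0.555 within rightward mutants) and 0.747 with foregut endoderm, *Daam2* had r = -0.750 with paraxial mesoderm, and *Prickle1* had r = 0.812 with heart field progenitors and 0.802 with surface ectoderm. The surface ectoderm sum is mostly that of *Krt8* and *Krt18*, and the foregut sum that of *Epcam* and *Cdh1*. Relations with these lists are therefore mostly relations with those genes. For *Vangl1*, *Prickle2* and *Ptk7*, r with the neural tube list was 0.409, 0.149 and -0.210, with adjusted permutation p of 0.115, 0.616 and 0.460. *Vangl1* passed with the node and notochord list (r = 0.580, rho = 0.665, adjusted permutation p = 0.0189 and 0.0059) and with primitive blood (r = 0.586, rho = 0.642), while *Prickle2* and *Ptk7* passed with none of the 11 lists. The lists were chosen with the data known, the 21 embryos span 3 groups and all values of an embryo share its pair of libraries.

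**Figure D4:**
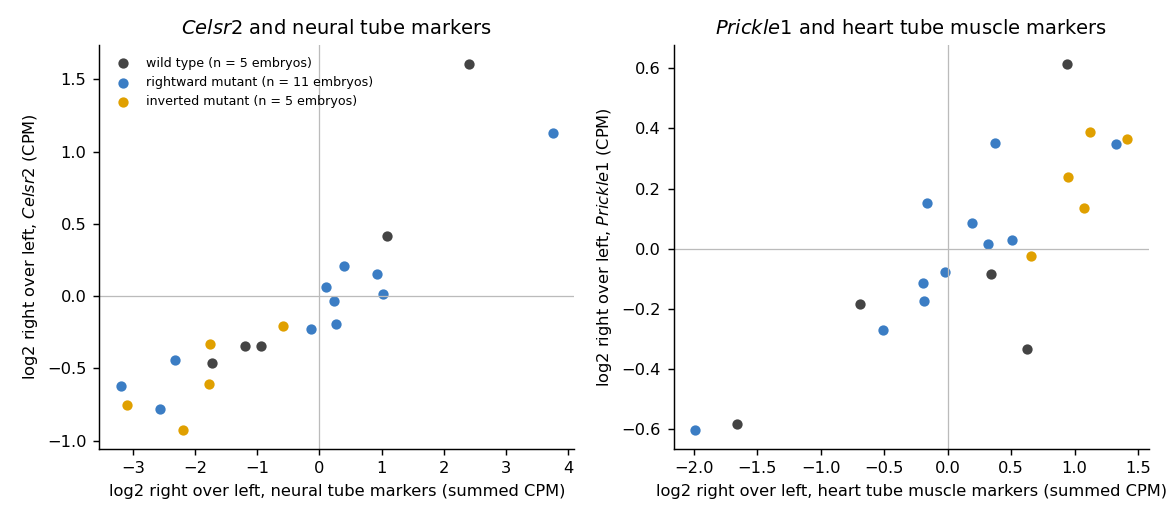
Log2 right over left of *Celsr2* against that of the summed neural tube markers (left panel) and of *Prickle1* against the heart tube muscle markers (right panel), with 1 point per embryo in the color of its group. The points run upward in both panels, with r = 0.906 and 0.83 over 21 embryos.

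The members were also set beside each other. Over the 21 embryos, right over left of *Celsr1* and *Celsr2* had r = 0.915, of *Vangl2* and *Celsr2* 0.863, and of *Celsr2* and *Celsr3* 0.843. *Daam1* had r = 0.599 with *Daam2*, 0.589 with *Prickle1* and -0.626 with *Celsr2*. *Daam2* had r = 0.411 with both *Prickle1* and *Ptk7*, and *Prickle1* had 0.410 with *Prickle2*. *Vangl1* had r = 0.312 with *Vangl2*, -0.251 with *Daam1* and -0.590 with *Ptk7*. These are descriptions, since the values of an embryo come from the same libraries.

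Among 11471 genes with a mean of at least 200 counts, the genes whose right over left was most like that of *Celsr2* were *Emid1* (r = 0.945), *Sox2* (0.937), which marks neural progenitors, and *Ccnd2* (0.931). *Sox2* is itself in the neural tube list, so its place here is not separate from the relation with that list. *Celsr1* was closest to *Emid1* (0.918), *Celsr2* (0.915) and *Ddr1* (0.883). *Vangl2* was closest to *Zbtb16* (0.924), *Tubb2b* (0.902) and *Dpysl5* (0.898). *Tubb2b* and *Dpysl5* are known from developing neurons. *Celsr3* was closest to *Fgf15* (0.904), *Crabp2* (0.890) and *Dtx4* (0.884).

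*Prickle1* was closest to *Apela* (0.909), which encodes a ligand of the apelin receptor, *Atp2c2* (0.897) and *Slc16a12* (0.895). *Daam1* was closest to *Olfml2b* (0.939), *Ripor1* (0.922) and *Ece1* (0.920), and *Daam2* to *Zbtb20* (0.833), *Lzts1* (0.828) and *Macf1* (0.818). The nearest genes of *Vangl1* were *Shh* (0.744), a signal of the notochord and foregut, *Pid1* (0.723) and *Nt5c3* (0.715). With the foregut list, which holds *Shh*, *Vangl1* had r = -0.119. Those of *Prickle2* were *Esco1* (0.738), *Radx* (0.737) and *Tmx1* (0.730), and those of *Ptk7* were *Tsc22d4* (0.820), *Map1s* (0.799) and *Sp2* (0.764).

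Outside the 10 members, 32 further genes of planar cell polarity and noncanonical WNT signaling were tested, and 1 was called in inverted mutants by edgeR, where 2.04% of all genes were. At an unadjusted p under 0.05 there were 6 of the 32, against 15.1% of all genes. The called gene was *Wnt11*, a ligand of the noncanonical branch that is known from the outflow tract. It had 1.60 and 3.09, 2.43 and 5.37, 1.67 and 4.42, 1.68 and 5.56, and 2.02 and 3.99 CPM on the left and right of the 5 embryos. Every right library was above every left one. The log2 fold change was 1.25 (SE 0.16, edgeR adjusted p = 0.0101), and the difference from rightward mutants was 1.92 (SE 0.39, edgeR adjusted p = 0.0317).

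The asymmetry of *Wnt11* was not called by edgeR in the other groups. It was at -0.68 in rightward mutants (SE 0.24, unadjusted p = 0.0121, edgeR adjusted p = 1.00) and at -0.67 in wild types (SE 0.31, edgeR adjusted p = 1.00). Of the other genes of the list, *Wnt5a* was at 0.32, *Prickle3* at 0.47, *Dact1* at 0.27 and *Smurf1* at 0.38 in inverted mutants, and *Fzd3* at -0.24. These 5 had an unadjusted p under 0.05 and were not called by edgeR, while DESeq2 called *Smurf1*, a ubiquitin ligase that acts on Prickle (adjusted p = 0.0445), along with 7.64% of all genes. These 5, and the genes named from the next groups, were named after their values were seen. The 3 Dishevelled genes ranged from -0.21 to 0.14, the 4 Fat and Dachsous genes from -0.06 to 0.12, and the 7 small GTPases and kinases, which include *Rhoa* and *Rock1*, from -0.09 to 0.10, with 0 called by either tool and 0 at an unadjusted p under 0.05. In the other 8 comparisons, edgeR called 0 of the 32.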

How the data were processed

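RNA was sequenced from paired left and right heart fields of 21 embryos. The authors trimmed adapters, removed duplicates, aligned the reads to Ensembl GRCm39 with STAR and counted them per gene with featureCounts (Subread 2.0.6), and the raw counts were deposited with no normalization. Strand and multi-mapping settings are not given in the sources used here. Identifiers were matched to GENCODE symbols (56310 of 56953, of which 12119 had 0 counts in every library). Totals were 36073684 to 62970327 counts per library, which limits *Celsr3* most.

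Counts were tested with the quasi-likelihood test of edgeR 4.0.16 (R 4.3.3, TMM, genes kept by filterByExpr at a min.prop of 0.2, a large.n of 50, a count minimum of 5 and a total of at least 10), with Benjamini-Hochberg adjustment over all genes tested and calls at 0.05. Tests of right over left had a block for the embryo, interactions over 42 libraries gave the differences of asymmetry, and levels per side carried sex. Log2 ratios per embryo used a prior count of 2, and intervals are at 95%. Embryo names in the labels give the pairing, and residuals of both sides of an embryo had a median correlation of 0.311 over 2000 genes, against -0.027 between embryos. Nothing says that embryos of a group came from separate litters, so p-values measure the spread between these embryos. DESeq2 1.42.0, library size alone, no filter, no replicate block, all libraries in 1 fit, males alone, no sex covariate and leaving out each embryo were tried. Permutations of correlations used scipy 1.17.1. The fits were tested on simulated data. By rule, all 10 members, pathway genes called and, for each member, the 3 genes of highest r were named, and other pathway genes in the text were named after their values were seen. The members and lists were chosen with earlier results of these data known. The study's clusters of embryos by gene expression asymmetry are not in the labels and were not used here.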

Additional observations from a re-analysis of the deposited data

Results flagged for a closer look

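In 60 checks of single embryos of wild types and inverted mutants against the rest of their group, 4 values were flagged. Chance flags about 1 in 20 groups, so this count is near the chance rate. The rightward mutants were not checked. In wild types, embryo 10_1 had a log2 right over left of *Vangl2* of 0.99, against -0.20 to 0.04 in the other 4, and 127 CPM on the right, against 73.6 to 88.9. In inverted mutants, embryo 18_2 had a log2 ratio of *Prickle2* of 0.64, against -0.03 to -0.02 in the other 4. Embryo 4_6 had a log2 ratio of *Daam2* of 0.54, against 0.23 to 0.30 in the other 4, which lie on the same side. Without embryo 18_2, the log2 value of *Prickle2* in inverted mutants went from 0.12 to -0.02, and it was not called in either case. Without embryo 4_6, *Daam2* had a log2 value of 0.26 in place of 0.32.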

How the results depend on the processing

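Of 2210 values of the members over the alternatives, 10 became called and 128 uncalled values changed sign. No member was called to begin with, so no call could be lost. The number of members called in inverted mutants, 0 by edgeR, was 2 with no filter on low counts (*Celsr2* and *Daam1*), 5 with DESeq2 and 0 to 1 on leaving out each embryo (1 without 10_3). For inverted mutants against wild types it was 1 with DESeq2 and 0 to 1 on leaving out each embryo (1 without 22_4). With no replicate block, 0 members were called in each asymmetry and each difference, and the pairing changed no member's call. Among all genes, the calls in inverted mutants were 468, and were 1755 with DESeq2, 942 with no filter and 305 with no replicate block. They were 141 with all libraries in 1 fit and 53 in males alone, and ran from 138 without embryo 32_2 to 446 without embryo 10_3. The difference from rightward mutants was 82 genes (456 with DESeq2, 131 with no filter, 17 with no replicate block, 7 in males alone, 18 without 18_2, 192 without 10_1). That from wild types was 135 (911 with DESeq2, 207 with no filter, 7 with no replicate block, 3 in males alone, 17 without 32_2, 641 without 22_4). With library size alone, the median log2 fold change of all genes was at most 0.03 from 0 in each comparison. The causes of these changes were not tested. Depth limits *Celsr3*, whose lowest library had 25 counts.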
